A study of Mus musculus with 24 samples.

Results

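The ligands and receptors that steer growing axons and migrating neurons were measured in cultured neural stem cells of wild-type mice and of mice labelled Mll1-deleted. The set holds the semaphorins Sema3 to Sema7, the plexins, the neuropilins Nrp1 and Nrp2, the Slit ligands and Robo receptors, the ephrins and Eph receptors, and the netrins with their receptors Dcc, Neo1 and Unc5a to Unc5d. The set was chosen with earlier results of these data known. Within it, members were taken by gene symbol alone, from probe sets (groups of array probes read as 1 value) that carry a single symbol. The symbols matched 76 probe sets of 72 genes, of 21095 genes on the array. For the 4 genes with 2 probe sets (Epha10, Ntng1, Sema6b and Unc5d), the one with the higher mean was used, except for Sema6b, whose probe sets have the same values. Of the 72 genes, 71 had a group mean above the floor in at least 1 group, where the floor is the mean lower quartile of intensity of the arrays of a group (24.5 to 27.2), and the exception was Epha6.

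The cells came from the subventricular zone, a niche beside the lateral ventricle where neuroblasts are born, and had been passaged 5 to 7 times in culture. Cultures of 3 wild-type mice (818, 862 and 870) and of 3 mice labelled Mll1-deleted (489, 814 and 858) were sampled on day 0, in a medium with serum, EGF and FGF, and on days 1, 2 and 4 after a change to a medium without serum and growth factors. Every culture was hybridised to its own array, so the 24 arrays form 8 groups, and n is 3 mice per group throughout. The labels used here name neither the strain, age or sex of the mice, nor the Cre driver, nor the deleted part of Mll1, which encodes a histone H3 lysine 4 methyltransferase now named Kmt2a. The words deleted cultures stand throughout for those so labelled.

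Guidance cues act in pairs with receptors on the growth cone or the leading process of a migrating cell. Slits bind Robo receptors and repel, class 3 semaphorins are secreted and bind neuropilins that signal with plexins, and the other semaphorins bind plexins directly. Netrins attract through Dcc and repel when an Unc5 receptor takes part, while ephrins and Eph receptors signal in both directions where cells touch. In the subventricular zone, Slit proteins from the ventral brain and choroid plexus help to orient neuroblasts, and Robo2, Dcc, ephrins and Eph receptors have known roles in the migration of neuroblasts or the growth of their precursors.

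Values are intensities on a linear scale, given in the order 818, 862 and 870 for wild-type and 489, 814 and 858 for Mll1-deleted cultures. Differences are on the log2 scale ± SE, from limma fits across all 21095 genes, and a gene was called at a Benjamini-Hochberg adjusted p under 0.05. Where leaving out a mouse or another alternative setting ended a call, the adjusted p reached there is given beside it. The arrays had medians of 75.6 to 87.1.

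The 1 probe set that carries the symbol Mll1 alone was not lower in the deleted cultures. On day 0 it was 427.9, 417 and 326.5 in wild-type and 580.0, 565 and 481 in deleted cultures, a difference of 0.48 ± 0.13 (adjusted p = 0.0176). The differences on days 1, 2 and 4 were 0.31, 0.09 and 0.36 (adjusted p = 0.187, 0.767 and 0.111). Whether its probes lie in the deleted part is not given in the sources used here, so this reading does not check the labels, and every direction between genotypes below rests on the labels alone. All 10 neural stem cell markers measured were above the floor on at least 1 array of every group. On day 0, 8 fibroblast and meningeal markers summed to an intensity of 8221 for mouse 489, 12644 for mouse 814 and 4473 for mouse 858, against 2801 to 3424 for the wild-type mice. Of 12 astrocyte markers, 6 were lower in deleted cultures on day 0 (2 without mouse 489, 814 or 862, 3 without 818 or 870, and 8 without 858), with sums of 17519 to 34302 against 35384 to 38437 in wild-type cultures, and on day 4 the sums overlapped, at 64301 to 70782 and 54412 to 68973. All 13 proliferation genes measured fell by day 4 in both genotypes, and their sums went from 14092 to 17187 on day 0 to 1692 to 2696 in wild-type cultures, and from 11405 to 15253 to 3012 to 4000 in deleted cultures. The part of these shifts in the members' changes was not tested. In these bulk cultures, fewer cells of a type and less RNA per cell cannot be told apart.

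In wild-type cultures, 28 of the 72 members were called on day 1 (17 higher and 11 lower than on day 0), where 25.4% of all genes were called (11.6% higher, 13.8% lower). On day 2 it was 35 members (20 higher, 15 lower), where 33.7% of all genes were called (15.7% higher, 18% lower). On day 4 it was 35 (19 higher, 16 lower), where 37.5% of all genes were called (17.1% higher, 20.4% lower). In Mll1-deleted cultures, 19 members were called on day 1 (9 higher, 10 lower), where 12.4% of all genes were called (5.86% higher, 6.52% lower). On day 2 there were 29 (14 higher, 15 lower), beside 23.3% of all genes (9.41% higher, 13.9% lower), and on day 4 there were 33 (11 higher, 22 lower), beside 29.6% of all genes (13.9% higher, 15.7% lower). As shares of the members, these calls came to 38.9%, 48.6% and 48.6% in wild-type and 26.4%, 40.3% and 45.8% in Mll1-deleted cultures. Only 17251 of all 21095 genes had a group mean above 25.7, the mean floor of all arrays. Of the 72 members, 71 passed the floor of a group. The shares of all genes, here and below, thus include more genes near background than those of the members. With the 6 arrays of the groups compared alone, 5 members were called in Mll1-deleted cultures on day 1 (3 higher, 2 lower), and without mouse 489 it was 11. Such settings change the calls of all genes too, whose shares under them are not given here. With array medians aligned, which shifts the median of all genes from 0.06 to -0.08 on day 2 and from 0.05 to -0.09 on day 4, the wild-type split was 14 higher and 18 lower on day 2 and 14 higher and 20 lower on day 4, and that of deleted cultures on day 2 was 10 higher and 17 lower.

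Members called on all 3 days in both genotypes numbered 7. Of these, Sema3a, Epha2, Unc5b, Nrp1 and Sema7a fell, and Plxnb1 and Plxnc1 rose. Sema3e on day 2 and Slit2 on day 4 were called in opposite directions in the genotypes. Another 9 members passed in none of the 14 comparisons, namely Epha8, Epha10, Ntn3, Ntn5, Plxnb2, Robo4, Sema3g, Sema4f and Sema6d. With the mouse as a block, 3 of these passed once in wild-type cultures, Plxnb2 on day 2 (adjusted p = 0.034) and Epha8 and Ntn3 on day 4 (adjusted p = 0.032 and 0.044). How many of all genes show these patterns was not counted, so the 7 and the 9 have no share of all genes beside them.

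**Figure D1:**
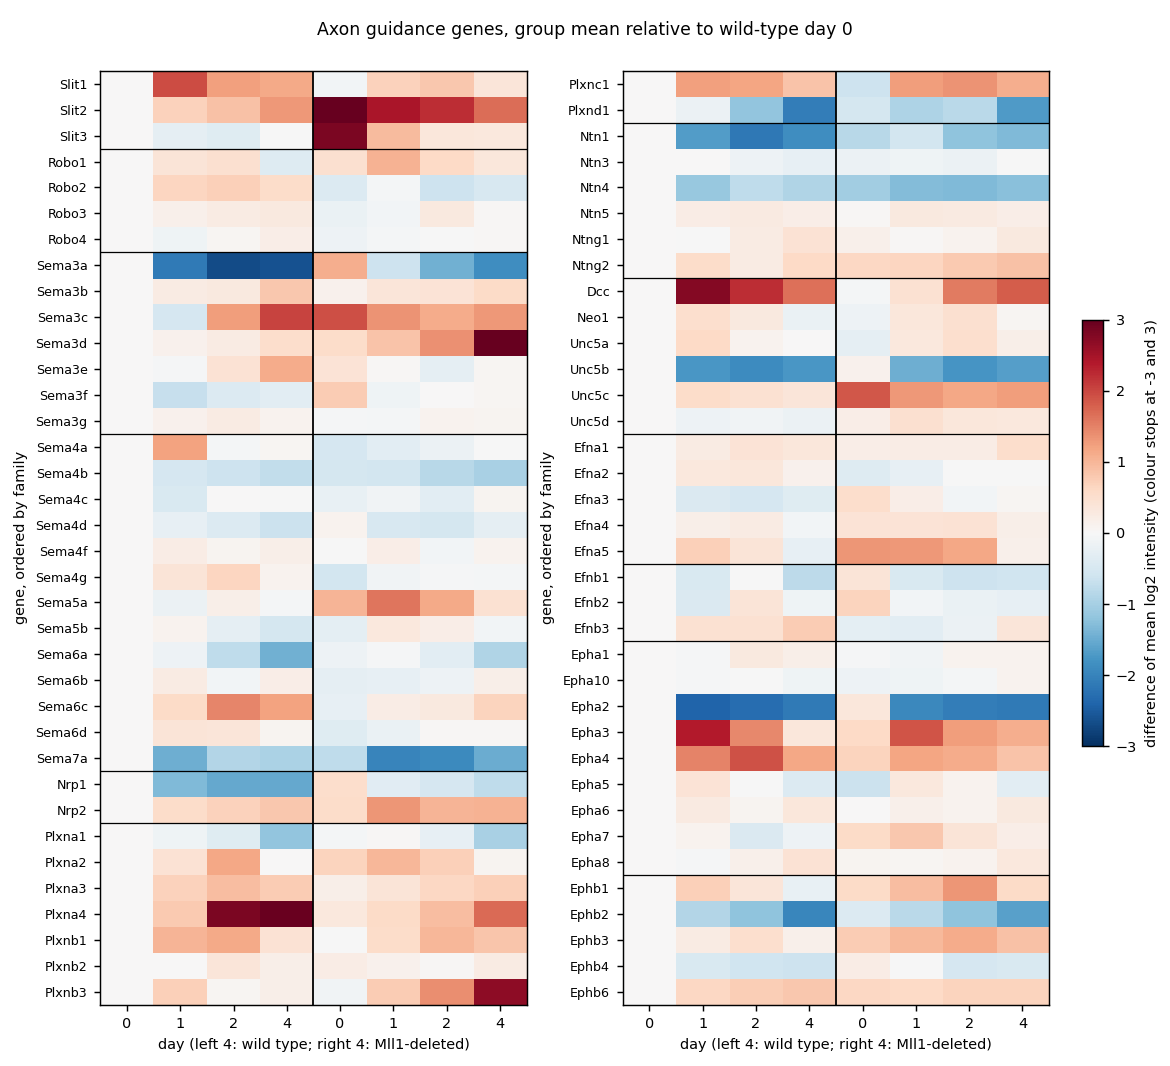
Mean log2 intensity of the 72 axon guidance genes in each of the 8 groups, minus the mean in wild-type cultures on day 0. Rows are genes ordered by family, columns are days (left 4 wild-type, right 4 Mll1-deleted), and red is higher and blue lower, with the colour stopping at -3 and 3. Slit2 and Slit3 stand out on day 0 of the deleted cultures, at 3.23 and 2.82, Plxna4 in wild-type cultures from day 2, and Sema3d and Plxnb3 on day 4 of the deleted ones.

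Between genotypes, 22 members were called on day 0 (18 higher and 4 lower in the deleted cultures), where 10.1% of all genes were called (5.4% higher, 4.68% lower). The count on day 1 was 24 (17 higher, 7 lower), beside 7.44% of all genes (3.6% higher, 3.84% lower). On day 2 the count was 22 (12 higher, 10 lower), beside 8.72% of all genes (4% higher, 4.73% lower), and on day 4 it was 12 (8 higher, 4 lower), beside 6.46% (3.73% higher, 2.73% lower). These are 30.6%, 33.3%, 30.6% and 16.7% of the members, which lay above the floor more often than all genes did. In the mean over the 4 days of each mouse, 26 members were called (36.1%, 18 higher, 8 lower), beside 7.29% of all genes (3.59% higher, 3.7% lower). The counts changed as single mice were left out, which changes the calls of all genes too. On day 0 the count was 12 without mouse 814 or mouse 870, 14 without mouse 489 or mouse 862, and 31 without mouse 858. On day 1 it was 11 without mouse 862, 12 without 489, 13 without 814, 14 without 818 or 870, and 30 without 858. On day 2 it was 13 without mouse 870, and on day 4 it was 6 without mouse 862. In the mean over the days it was 9 without mouse 862 or 870, 12 without 818 and 15 without 489. The change from day 0 itself was called as different between the genotypes for 4 members on day 1 (2 higher, 2 lower), beside 2.43% of all genes (1.28% higher, 1.15% lower). On day 2 it was 12 (2 higher, 10 lower), beside 4.8% of all genes (2.18% higher, 2.62% lower), and on day 4 it was 12 (6 higher, 6 lower), beside 5.82% (3.27% higher, 2.56% lower). With the mouse as a block, the count on day 1 was 11 (2 higher, 9 lower). As each mouse was left out, these counts were 1 to 2 on day 1 (but 11 without mouse 858), 4 to 9 on day 2 (but 20 without mouse 858) and 5 to 7 on day 4 (but 18 without mouse 858).

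**Figure D2:**
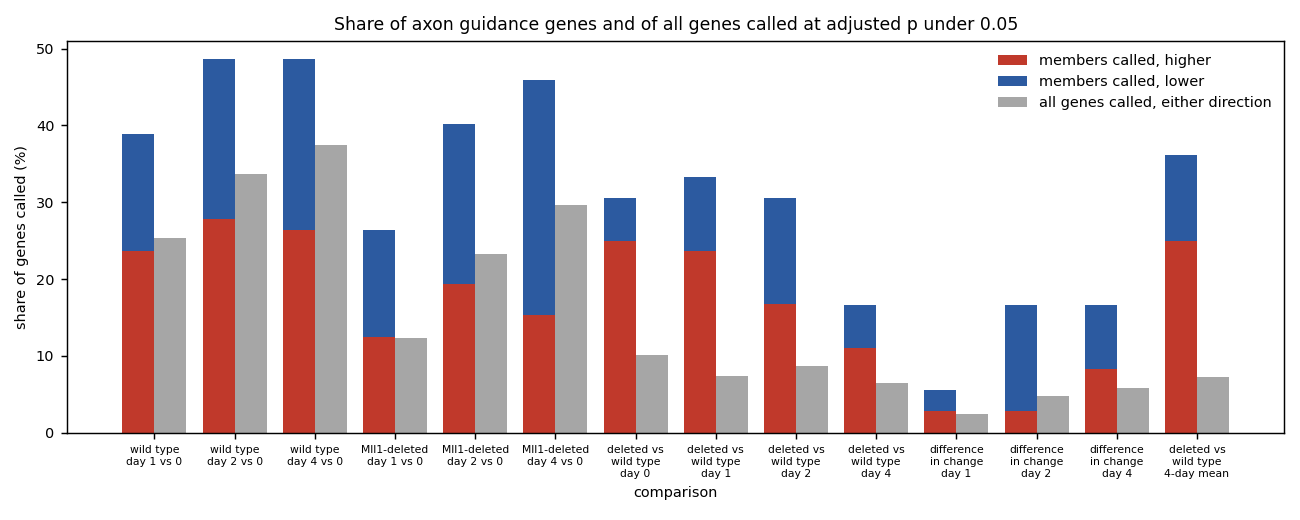
Share of genes called at an adjusted p under 0.05 in each of the 14 comparisons, for the 72 axon guidance genes (red higher, blue lower, stacked) and for all 21095 genes in either direction (grey). The grey share includes genes below the floor. On day 0 between genotypes, 25% of the members were higher and 5.56% lower, beside 10.1% of all genes in either direction.

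The Slit ligands gave the largest difference between the genotypes before differentiation. Slit2 on day 0 was 43.0, 47.2 and 42.7 in wild-type cultures and 615, 726 and 162 in Mll1-deleted cultures. All 3 deleted cultures lay above all wild-type ones, with mouse 858 nearest to them. The difference was 3.23 ± 0.40 (9.41-fold, adjusted p = 8.87e-06), and it ranged from 2.83 to 3.92 as each mouse was left out, the highest without mouse 858. Slit3 was 85.4, 76.9 and 86.8 in wild-type and 695, 1121 and 257 in deleted cultures on that day, again with mouse 858 lowest of its group. Its difference was 2.82 ± 0.35 (7.05-fold, adjusted p = 8.52e-06), with a range of 2.35 to 3.41, the highest also without mouse 858. Of the 8 fibroblast and meningeal markers, whose sums for each deleted mouse are given above, 4 were called higher on day 0 (1 without mouse 862 or 870, 2 without 489 or 818, and 6 without 858). Their part in the Slit difference was not tested. Of these markers, Lum was below the floor on all arrays, and Twist1 was higher by 1.40 ± 0.23 (2.64-fold, adjusted p = 0.000214).

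The 250 bases before the annotated starts of these genes are shown because both, like the Unc5c start below, lie in a stretch rich in CpG, the dinucleotide that the CXXC domain of Mll1 is known to bind when it is not methylated. CpG is in capitals, and the sequences are from RefSeq (GRCm38.p6), with Slit2 at chr5:47982905-47983154, plus strand, and Slit3 at chr11:35121206-35121455, plus strand.
Slit2: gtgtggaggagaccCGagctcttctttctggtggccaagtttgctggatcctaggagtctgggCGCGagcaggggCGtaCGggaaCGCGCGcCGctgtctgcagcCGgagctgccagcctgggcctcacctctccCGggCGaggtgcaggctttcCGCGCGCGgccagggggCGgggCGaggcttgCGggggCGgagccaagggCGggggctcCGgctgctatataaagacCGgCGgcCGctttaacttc
Slit3: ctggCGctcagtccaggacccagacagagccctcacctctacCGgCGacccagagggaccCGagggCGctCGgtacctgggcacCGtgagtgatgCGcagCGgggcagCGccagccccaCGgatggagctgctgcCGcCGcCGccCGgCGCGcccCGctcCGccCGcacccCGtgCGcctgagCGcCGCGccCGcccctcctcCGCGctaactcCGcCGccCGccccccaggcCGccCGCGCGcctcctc
The Slit2 stretch holds 25 CpG and that of Slit3 holds 35. Over the 78 annotated starts of the 62 members in that table, the median was 15.5 CpG per 250 bases (quartiles 8 and 23), against 6 (quartiles 2 and 16) over all 32851 starts. The hexamer GGGCGG, which holds a CpG itself and was read on both strands, was in 70.5% of the members' windows and 32.7% of all. Of the other motifs searched on both strands, TGANTCA was in 3.85% of the members' windows and 6.75% of all, TAATTA in 3.85% and 4.84%, and ATGCAAAT in 0 and 1.6%. A count of letters says nothing of binding, which was not measured here, and CpG was not tested against the genotype differences.

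The genotypes lay closer together in Slit2 and Slit3 on later days. Slit3 fell in the deleted cultures to 102, 172 and 66.1 on day 2 and 104, 112 and 94.5 on day 4. The change from day 0 was -2.47 ± 0.40 (5.56-fold, adjusted p = 0.0001) on day 2 and -2.50 ± 0.40 (5.67-fold, adjusted p = 4.79e-05) on day 4, while wild-type cultures stayed between 61.4 and 91.1 on days 1 to 4. Between genotypes these changes differed by -2.11 ± 0.56 (4.3-fold, adjusted p = 0.0306, but up to 0.186 without mouse 489, 818, 862 or 870) on day 2 and -2.50 ± 0.56 (5.65-fold, adjusted p = 0.00994, but up to 0.0912 without mouse 489, 818, 862 or 870) on day 4. On day 4 the deleted cultures still lay above the wild-type ones, at 91.1, 74.9 and 82.8, but their difference was 0.32 ± 0.35 (adjusted p = 0.708). Slit2 moved in opposite directions, from its day 0 levels to 125, 92.1 and 110.2 in wild-type and 122, 218 and 107 in deleted cultures on day 4. The change was 1.29 ± 0.46 (2.44-fold, adjusted p = 0.0299, but up to 0.176 without mouse 818, 862 or 870 or with array medians aligned) in wild-type and -1.56 ± 0.46 (2.95-fold, adjusted p = 0.0124, but up to 0.192 without mouse 489 or with the 6 arrays alone) in deleted cultures, and the difference of the changes was -2.85 ± 0.65 (7.2-fold, adjusted p = 0.0108, but up to 0.116 without mouse 489, 818 or 870).

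Slit1 behaved otherwise. It was 59.5, 49.8 and 61.3 on day 0 and 241, 157 and 280.1 on day 1 in wild-type cultures, and 55.8, 48.7 and 55.8 and 68.1, 86.2 and 133 in deleted cultures. All wild-type values on day 1 exceeded all deleted ones. Slit1 rose in wild-type cultures by 1.96 ± 0.24 (3.88-fold, adjusted p = 3.35e-06) on day 1, 1.23 ± 0.24 (2.34-fold, adjusted p = 0.000397) on day 2 and 1.14 ± 0.24 (2.21-fold, adjusted p = 0.00065) on day 4. In deleted cultures it rose by 0.79 ± 0.24 (1.73-fold, adjusted p = 0.0365, but up to 0.249 without mouse 814, 818, 858 or 870 or with the 6 arrays alone) on day 1 and 0.89 ± 0.24 (1.85-fold, adjusted p = 0.0102, but 0.162 without mouse 814) on day 2. On day 1 it was lower in deleted cultures, with a difference of -1.26 ± 0.23 (2.39-fold, adjusted p = 0.00103). The difference of its changes, -1.17 ± 0.35 (adjusted p = 0.0823), passed with the mouse as a block (adjusted p = 0.0101).

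Of the Robo receptors, in the deleted cultures Robo2 was lower on day 2 and over the 4 days, and Robo1 higher on day 1. Robo2 on day 2 was 619.9, 741 and 660.0 in wild-type and 258, 350.2 and 209 in deleted cultures, with no overlap. The difference was -1.33 ± 0.24 (2.52-fold, adjusted p = 0.000741), and in the mean of the 4 days it was -0.87 ± 0.11 (1.83-fold, adjusted p = 0.00316). Robo1 on day 1 was 378, 412 and 395 in wild-type and 617, 597 and 673 in deleted cultures, which again did not overlap, with a difference of 0.67 ± 0.15 (1.59-fold, adjusted p = 0.00646). On day 2 the Robo1 difference was at most 0.21 as each mouse was left out. Robo3, which in commissural axons tempers the response to Slit, stayed between 24.8 and 53.9, and Robo4, known mainly from endothelium, between 29.9 and 49.4. Robo4 passed no test, and Robo3 passed 1, a change of 0.49 ± 0.16 (1.41-fold, adjusted p = 0.0238, but up to 0.129 without mouse 489, 814 or 858 or with the 6 arrays alone or with array medians aligned) from day 0 to day 2 in deleted cultures.

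Netrin 1, the diffusible attractant of commissural axons, fell in wild-type cultures on the first day without growth factors, and its change differed in deleted cultures. Ntn1 was 891, 783 and 998 on day 0, 306, 219 and 318 on day 1 and 197, 184 and 219 on day 2 in wild-type cultures. In deleted cultures it was 368, 449 and 755, 607, 726 and 494 and 412, 465 and 301. Mouse 489 and mouse 814 rose on day 1 while mouse 858 and all wild-type mice fell. The wild-type change was -1.68 ± 0.24 (3.2-fold, adjusted p = 1.9e-05) on day 1, -2.15 ± 0.24 (4.44-fold, adjusted p = 4.42e-07) on day 2 and -1.87 ± 0.24 (3.65-fold, adjusted p = 1.75e-06) on day 4, and the changes in deleted cultures, 0.27 ± 0.24 (adjusted p = 0.611), -0.37 ± 0.24 (adjusted p = 0.316) and -0.50 ± 0.24 (adjusted p = 0.128), did not pass. The difference of the changes passed on each day, at 1.94 ± 0.34 (3.85-fold, adjusted p = 0.0023), 1.78 ± 0.34 (3.44-fold, adjusted p = 0.00302) and 1.37 ± 0.34 (2.58-fold, adjusted p = 0.0193, but up to 0.219 without mouse 489, 814, 818, 862 or 870).

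Ntn4, a netrin of basement membranes, was already lower in deleted cultures on day 0, at 327, 319 and 456 against 731, 709 and 793 in wild-type ones. That difference was -1.04 ± 0.14 (2.05-fold, adjusted p = 2.31e-05). Wild-type cultures then fell to 336, 323 and 358 on day 1, close to the 287, 319.8 and 299 of the deleted ones, a change of -1.14 ± 0.14 (2.2-fold, adjusted p = 2.52e-06), and the changes to days 2 and 4 were -0.75 ± 0.14 (1.69-fold, adjusted p = 0.000178) and -0.90 ± 0.14 (1.86-fold, adjusted p = 1.76e-05). The deleted cultures did not pass on any day, with changes of -0.26 ± 0.14 (adjusted p = 0.266), -0.30 ± 0.14 (adjusted p = 0.138) and -0.22 ± 0.14 (adjusted p = 0.265). Over the 4 days Ntn4 was lower in deleted cultures, with a difference of -0.54 ± 0.08 (1.45-fold, adjusted p = 0.00685), and the difference of the changes was 0.87 ± 0.20 (1.83-fold, adjusted p = 0.0165, but up to 0.179 without mouse 489, 814, 818, 862 or 870) on day 1 and 0.68 ± 0.20 (1.6-fold, adjusted p = 0.0422, but up to 0.252 without mouse 489, 814, 818, 862 or 870) on day 4. Of the netrin-G proteins, which sit in the membrane and bind NGL proteins rather than Dcc, Ntng2 was higher in deleted cultures on day 0 by 0.62 ± 0.14 (1.54-fold, adjusted p = 0.00334). Ntng1 was measured by 2 probe sets that disagree. In deleted cultures, the group mean of the one used was 113.7 on day 0 and 126 on day 4, and that of the other was 89.0 and 46.6. With the one used, the wild-type change to day 4 was 0.42 ± 0.11 (1.34-fold, adjusted p = 0.00535, but up to 0.0727 without mouse 862 or 870 or with array medians aligned).

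Among the netrin receptors, Unc5c was higher and Dcc, on day 1, lower in deleted cultures. Unc5c on day 0 was 141, 169 and 134 in wild-type and 954, 424 and 389 in deleted cultures, without overlap and with mouse 489 far above the other deleted mice. The difference was 1.87 ± 0.23 (3.67-fold, adjusted p = 8.24e-06), and over the 4 days it was 1.05 ± 0.14 (2.07-fold, adjusted p = 0.00311). On day 4 the values were 216, 197 and 159 in wild-type and 363, 271 and 431 in deleted cultures, a difference of 0.88 ± 0.23 (1.84-fold, adjusted p = 0.0228, but up to 0.19 without mouse 862 or 870). Its changes to day 2 differed by -1.19 ± 0.34 (2.28-fold, adjusted p = 0.0431, but up to 0.207 without mouse 489, 814, 818, 862 or 870 or with array medians aligned). The 250 bases before its annotated start (chr3:141465314-141465563, plus strand, GRCm38.p6, CpG in capitals) hold 23 CpG.
Unc5c: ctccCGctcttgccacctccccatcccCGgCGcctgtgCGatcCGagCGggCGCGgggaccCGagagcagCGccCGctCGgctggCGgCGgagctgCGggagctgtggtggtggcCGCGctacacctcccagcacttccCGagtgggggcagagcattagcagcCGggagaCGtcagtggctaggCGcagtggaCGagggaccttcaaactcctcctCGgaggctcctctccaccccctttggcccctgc

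Dcc had the largest rise of the 72 members on day 1 in wild-type cultures. It was 35.9, 36.1 and 47.1 on day 0, 413, 155 and 289 on day 1 and 148, 110.5 and 114 on day 4, a change of 2.75 ± 0.34 (6.72-fold, adjusted p = 3.31e-06) on day 1, 2.22 ± 0.34 (4.67-fold, adjusted p = 2.35e-05) on day 2 and 1.64 ± 0.34 (3.13-fold, adjusted p = 0.000511) on day 4. In deleted cultures it was 33.9, 38.9 and 41.9 on day 0, 43.5, 42.8 and 86.5 on day 1 and 89.0, 176 and 174 on day 4. The genotypes did not overlap on day 1, where the difference was -2.28 ± 0.32 (4.86-fold, adjusted p = 5.35e-05), and did on day 4, where it was 0.18 ± 0.32 (adjusted p = 0.836). Deleted cultures rose by 1.62 ± 0.34 (3.07-fold, adjusted p = 0.00137) by day 2 and 1.88 ± 0.34 (3.67-fold, adjusted p = 0.000226) by day 4, and their change to day 1 differed from that of wild-type by -2.23 ± 0.49 (4.7-fold, adjusted p = 0.013, but up to 0.142 without mouse 814, 818 or 870). Mouse 489 was the lowest of the deleted mice on days 2 and 4. Neo1, the other Dcc family receptor, stayed between 793 and 1870 on all arrays and passed in no genotype comparison.

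Unc5b, a receptor of netrin 1 known from vessels and from cell survival, fell in both genotypes. Wild-type cultures went from 293, 263 and 297 on day 0 to 76.9, 77.1 and 75.5 on day 2, and deleted ones from 258, 591 and 194 to 94.8, 95.1 and 62.7. Mouse 814 held the highest value on day 0. The change to day 2 was -1.89 ± 0.27 (3.71-fold, adjusted p = 9.22e-06) in wild-type and -1.90 ± 0.27 (3.74-fold, adjusted p = 2.91e-05) in deleted cultures. Unc5a rose in deleted cultures from day 0 to day 2 by 0.78 ± 0.17 (1.71-fold, adjusted p = 0.00218), and Unc5d was higher in deleted than in wild-type cultures on day 1 by 0.62 ± 0.17 (1.54-fold, adjusted p = 0.0228, but up to 0.132 without mouse 489, 818, 862 or 870 or with the 6 arrays alone).

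**Figure D3:**
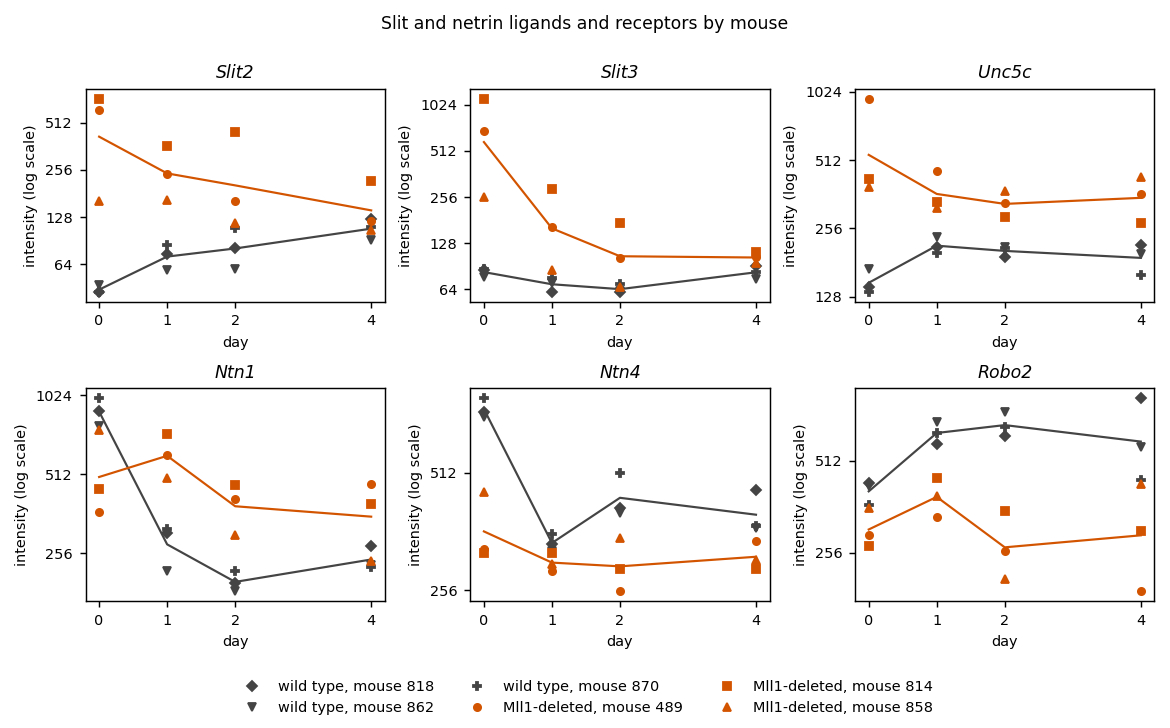
Intensity (log scale) by day of Slit2, Slit3, Unc5c, Ntn1, Ntn4 and Robo2. Each marker is 1 mouse (grey wild-type, orange Mll1-deleted) and lines join the means of log2 values. Slit3 in the deleted cultures went from 257 to 1121 on day 0 to 94.5 to 112 on day 4, and Ntn1 in wild-type cultures from 783 to 998 to 227 to 273.

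The class 3 semaphorins moved in several ways. Sema3a, the classic repellent that binds Nrp1, fell in both genotypes. It was 628, 493 and 615 on day 0 and 109, 90.5 and 84.4 on day 4 in wild-type cultures, and 1402, 1316 and 998 and 220.2, 189 and 96.2 in deleted cultures. The groups did not overlap on day 0, and on day 4 mouse 858 lay among the wild-type values. The change to day 4 was -2.61 ± 0.37 (6.11-fold, adjusted p = 6.18e-06) in wild-type and -2.95 ± 0.37 (7.72-fold, adjusted p = 3.39e-06) in deleted cultures. Between genotypes it was higher in deleted cultures on day 1 by 1.50 ± 0.33 (2.82-fold, adjusted p = 0.00543, but up to 0.117 without mouse 489, 814, 862 or 870 or with the 6 arrays alone) and over the 4 days by 1.14 ± 0.26 (2.21-fold, adjusted p = 0.0337, but up to 0.127 without mouse 489, 814, 818, 862 or 870).

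Sema3c, which can attract as well as repel, was high in deleted cultures on day 0 and rose to that level later in wild-type ones. On day 0 it was 134, 81.8 and 99.7 in wild-type and 407, 516 and 295 in deleted cultures. On day 4 it was 483, 385 and 395 and 282, 326 and 179.9, so the order of the groups had turned. The genotype difference was 1.94 ± 0.30 (3.84-fold, adjusted p = 0.000112) on day 0, 1.85 ± 0.30 (3.61-fold, adjusted p = 0.000283) on day 1 and -0.72 ± 0.30 (adjusted p = 0.18) on day 4. Wild-type cultures rose by 2.03 ± 0.35 (4.07-fold, adjusted p = 6.58e-05) by day 4. The change in deleted cultures was -0.64 ± 0.35 (adjusted p = 0.185), and with the mouse as a block its adjusted p was 0.00247. The difference of the changes was -2.66 ± 0.49 (6.32-fold, adjusted p = 0.0023). On day 2 that difference was -2.07 ± 0.49 (4.21-fold, adjusted p = 0.0152, but up to 0.114 without mouse 489, 818, 862 or 870).

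Sema3e, a ligand of Plxnd1 that needs no neuropilin, moved in opposite directions. Wild-type cultures went from 71.8, 74.4 and 72.9 on day 0 to 87.1, 95.5 and 114 on day 2 and 190.1, 154 and 137 on day 4. Deleted cultures went from 105, 106 and 81.8 to 57.8, 64.4 and 58.4 and 78.3, 67.2 and 82.7. The genotypes did not overlap on day 2 or day 4, with the wild-type values higher. The change to day 2 was 0.43 ± 0.15 (1.35-fold, adjusted p = 0.0294, but up to 0.229 without mouse 862 or 870 or with array medians aligned) in wild-type and -0.69 ± 0.15 (1.62-fold, adjusted p = 0.00151) in deleted cultures, and the difference of the changes was -1.12 ± 0.21 (2.17-fold, adjusted p = 0.00242) on day 2 and -1.48 ± 0.21 (2.79-fold, adjusted p = 0.000199) on day 4. On day 4 the genotype difference was -1.07 ± 0.15 (2.1-fold, adjusted p = 0.000106). Its receptor Plxnd1 fell in wild-type cultures from 572, 648 and 448 to 139.5, 169 and 92.6 on day 4, a change of -2.08 ± 0.19 (4.23-fold, adjusted p = 1.05e-08), and in deleted cultures from 387, 356 and 399 to 179, 181 and 147, a change of -1.18 ± 0.19 (2.26-fold, adjusted p = 4.51e-05). The difference of these changes was 0.91 ± 0.26 (1.87-fold, adjusted p = 0.0428, but up to 0.219 without mouse 489, 814, 818 or 870) on day 4 and 0.91 ± 0.26 (1.88-fold, adjusted p = 0.0479, but up to 0.293 without mouse 489, 814 or 818) on day 2.

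Sema3d rose late in the deleted cultures. On day 0 it was 20.5, 22.5 and 25.5 in wild-type cultures, with a mean below the floor, and 36.1, 33.4 and 30.0 in deleted ones. On day 4 it was 33.9, 31.4 and 32.5 in wild-type and 335, 125 and 207 in deleted cultures, with every deleted value above every wild-type value. The change to day 4 in deleted cultures was 2.64 ± 0.22 (6.21-fold, adjusted p = 1.56e-08), the genotype difference on day 4 was 2.66 ± 0.22 (6.31-fold, adjusted p = 1.19e-07), and the difference of the changes was 2.12 ± 0.31 (4.33-fold, adjusted p = 0.000265), which rests on a wild-type start near background. On day 2 the difference was 1.13 ± 0.22 (at least 2.12-fold, adjusted p = 0.00173). Of the remaining class 3 members, Sema3f fell in deleted cultures by day 4, with a change of -0.69 ± 0.17 (1.61-fold, adjusted p = 0.00389, but 0.0769 without mouse 489), Sema3b rose by 0.80 ± 0.13 (1.75-fold, adjusted p = 4.25e-05) in wild-type and 0.46 ± 0.13 (1.37-fold, adjusted p = 0.0124, but up to 0.148 without mouse 489 or 814 or with array medians aligned) in deleted cultures, and Sema3g passed no test.

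Of the neuropilins, the receptor subunits of class 3 semaphorins, Nrp1 fell and Nrp2 rose in both genotypes. Nrp1 went from 538, 478 and 503 on day 0 to 151, 201 and 175 on day 2 in wild-type cultures, and from 715, 780.5 and 699 to 395, 378 and 306 in deleted cultures. All deleted values on day 2 lay above all wild-type ones. The change was -1.54 ± 0.22 (2.9-fold, adjusted p = 9.93e-06) in wild-type and -1.03 ± 0.22 (2.04-fold, adjusted p = 0.00146) in deleted cultures, and the genotype difference on day 2 was 1.04 ± 0.21 (2.05-fold, adjusted p = 0.00237). Nrp2 went from 39.6, 42.4 and 57.6 on day 0 to 89.5, 72.9 and 80.5 on day 4 in wild-type cultures, a change of 0.81 ± 0.18 (1.76-fold, adjusted p = 0.000906), and from 72.4, 80.1 and 52.1 to 77.0, 92.1 and 117 in deleted cultures, a change of 0.49 ± 0.18 (1.4-fold, adjusted p = 0.0455, but up to 0.632 without mouse 858, 862 or 870 or with the 6 arrays alone or with array medians aligned). It was higher in deleted cultures over the 4 days by 0.46 ± 0.08 (1.38-fold, adjusted p = 0.0113, but 0.058 without mouse 862).

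The membrane-bound semaphorins of classes 4 to 7 held 13 members. Sema7a, which is anchored by a lipid and binds Plxnc1, fell in both genotypes and was lower in deleted cultures. On day 0 it was 265, 298 and 317 in wild-type and 176, 122 and 244 in deleted cultures, and on day 2 193, 145 and 147 and 77.0, 66.1 and 94.8. The genotypes did not overlap on either day, with mouse 858 nearest on day 0. The change to day 2 was -0.87 ± 0.18 (1.83-fold, adjusted p = 0.000655) in wild-type and -1.15 ± 0.18 (2.22-fold, adjusted p = 9.27e-05) in deleted cultures, and the difference on day 2 was -1.03 ± 0.17 (2.04-fold, adjusted p = 0.000413).

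Sema5a, which carries thrombospondin repeats, was higher in deleted cultures on day 1, at 538, 498 and 505 against 119, 187 and 157. The difference was 1.76 ± 0.21 (3.39-fold, adjusted p = 9.35e-06) on day 1, 1.02 ± 0.21 (2.03-fold, adjusted p = 0.00205) on day 0 and 1.06 ± 0.07 (2.09-fold, adjusted p = 0.00021) over the 4 days. Sema4a had its highest level on day 1 in wild-type cultures, at 179.6, 108 and 154 against 60.5, 66.2 and 59.7 on day 0 and 50.0, 59.3 and 72.0 on day 2. Deleted cultures had 39.1, 39.4 and 55.4 on day 0 and 44.2, 43.1 and 65.9 on day 1. The wild-type change to day 1 was 1.21 ± 0.23 (2.32-fold, adjusted p = 0.000362) and the genotype difference on day 1 was -1.52 ± 0.22 (2.87-fold, adjusted p = 6.46e-05), while the difference of the changes was -1.03 ± 0.32 (adjusted p = 0.11), and passed with the mouse as a block (adjusted p = 0.0131).

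Sema6c and Sema6a, transmembrane ligands of A-class plexins, went opposite ways. Sema6c rose in wild-type cultures from 93.6, 97.9 and 84.0 on day 0 to 338, 202 and 241 on day 2, and in deleted cultures from 68.2, 78.6 and 87.5 to 95.0, 112 and 135. All wild-type values on day 2 exceeded all deleted ones. The rise was 1.47 ± 0.18 (2.78-fold, adjusted p = 1.68e-06) in wild-type and 0.54 ± 0.18 (1.45-fold, adjusted p = 0.0353, but up to 0.154 without mouse 489, 814, 858 or 870 or with array medians aligned) in deleted cultures, the genotype difference was -1.17 ± 0.17 (2.25-fold, adjusted p = 6.9e-05), and the difference of the changes was -0.93 ± 0.26 (1.91-fold, adjusted p = 0.0385, but up to 0.202 without mouse 489, 814, 818 or 870). Sema6a fell in wild-type cultures from 1078, 1056 and 1008 to 439, 410.0 and 319.9 on day 4, a change of -1.44 ± 0.14 (2.71-fold, adjusted p = 2.72e-08), and in deleted cultures from 1042, 769 and 1049 to 557, 544 and 592, a change of -0.74 ± 0.14 (1.67-fold, adjusted p = 0.000259). The difference of these changes was 0.70 ± 0.19 (1.62-fold, adjusted p = 0.0362, but up to 0.186 without mouse 489, 814, 818, 862 or 870). Sema4b fell in both genotypes by day 4, with changes of -0.74 ± 0.12 (1.67-fold, adjusted p = 3.96e-05) in wild-type and -0.44 ± 0.12 (1.36-fold, adjusted p = 0.00816, but up to 0.17 without mouse 858 or with the 6 arrays alone) in deleted cultures. On day 0 it was 490.4, 458 and 526 in deleted and 715, 751 and 665 in wild-type cultures, a difference of -0.53 ± 0.12 (1.45-fold, adjusted p = 0.0061, but up to 0.0639 without mouse 814 or 862). Sema6b is read by 2 probe sets with the same values, which the annotation marks as cross-hybridising.

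Plexins are the signalling receptors of semaphorins, and of the 9 members, Plxna4 was lower and Plxnb3 higher in deleted cultures on days 2 and 4. Plxna4, which works with neuropilins and also binds class 6 semaphorins, rose in wild-type cultures from 75.4, 72.7 and 73.7 on day 0 to 762, 405 and 456 on day 2 and 595, 652 and 491 on day 4. Deleted cultures were at 85.4, 108 and 86.3 on day 0, at 98.5, 153 and 185 on day 2 and at 160.3, 283 and 303 on day 4. No deleted culture reached a wild-type value on day 2 or 4. The rise was 2.81 ± 0.23 (7.04-fold, adjusted p = 7.26e-09) by day 2 and 2.96 ± 0.23 (7.79-fold, adjusted p = 1.84e-09) by day 4 in wild-type cultures, and 1.37 ± 0.23 (2.59-fold, adjusted p = 9.24e-05) by day 4 in deleted ones. The difference of the changes was -2.21 ± 0.33 (4.63-fold, adjusted p = 0.000273) on day 2 and -1.59 ± 0.33 (3.0-fold, adjusted p = 0.00518) on day 4. The 17 neuroblast markers measured had 15 called higher on day 2 than on day 0 in wild-type cultures. In deleted cultures it was 8 higher and 2 lower (1 lower without mouse 489, 814, 858 or 862), and 13 of them were lower in deleted than in wild-type cultures on day 2 (10 to 15 as each mouse was left out). Their summed intensity on day 2 was 17668 to 24924 in wild-type and 6663 to 11778 in deleted cultures, and on day 4 it overlapped, at 10734 to 14531 and 8017 to 14265, with 4 of 17 lower in deleted cultures (1 without mouse 489, 862 or 870, 2 without 814 or 818, and 8 without 858), while Plxna4 did not overlap on that day. Their part in the Plxna4 difference was not tested.

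Plxna2 had a peak on day 2 in wild-type cultures, at 1354, 1102 and 1047 against 556, 570.5 and 451 on day 0 and 660.0, 484 and 451 on day 4. Deleted cultures were at 1007, 665 and 861 on day 0 and 852, 972 and 747 on day 2. The wild-type change to day 2 was 1.15 ± 0.17 (2.22-fold, adjusted p = 1.19e-05), and the difference of the changes was -1.12 ± 0.24 (2.17-fold, adjusted p = 0.00634, but 0.059 without mouse 489).

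Plxnb3 rose late in the deleted cultures. It was 53.2, 33.5 and 52.0 on day 0, 117, 123 and 146 on day 2 and 339, 169 and 544 on day 4. In wild-type cultures it was 40.2, 58.4 and 49.8 on day 0, 43.2, 62.1 and 48.1 on day 2 and 49.4, 62.6 and 54.0 on day 4. The groups overlapped on day 0 and not on days 2 and 4. The rise in deleted cultures was 1.50 ± 0.30 (2.83-fold, adjusted p = 0.000839) by day 2 and 2.80 ± 0.30 (6.95-fold, adjusted p = 4.65e-07) by day 4, the genotype difference on day 4 was 2.51 ± 0.27 (5.72-fold, adjusted p = 3.67e-06), and the difference of the changes was 2.63 ± 0.42 (6.17-fold, adjusted p = 0.000701). Of 15 markers of the oligodendrocyte lineage, 12 were higher on day 4 than on day 0 in deleted cultures. In wild-type ones it was 3 higher (1 without mouse 818 or 870, and 2 without 862) and 2 lower, and 11 were higher in deleted than in wild-type cultures on day 4. Their summed intensity on day 4 was 12198, 8541 and 16911 in deleted and 4285 to 5102 in wild-type cultures. The part of these cells in the rise of Plxnb3 or Sema3d was not tested.

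The 250 bases before the late-rising genes hold 4 CpG for Sema3d (chr5:12382916-12383165, plus strand) and 3 for Plxnb3 (chrX:73756853-73757102, plus strand), below the median of all starts. The starts shown in this report were picked by hand with the values of the genes known. Slit1, Ntn1, Dcc and Plxna4, among others, have no listed start, so CpG was not compared between members that moved in different ways. CpG is again in capitals (RefSeq, GRCm38.p6).
Sema3d: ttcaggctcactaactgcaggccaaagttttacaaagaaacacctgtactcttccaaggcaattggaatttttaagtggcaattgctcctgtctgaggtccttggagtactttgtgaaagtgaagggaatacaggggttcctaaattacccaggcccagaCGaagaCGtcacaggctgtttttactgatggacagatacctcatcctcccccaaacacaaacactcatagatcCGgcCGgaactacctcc
Plxnb3: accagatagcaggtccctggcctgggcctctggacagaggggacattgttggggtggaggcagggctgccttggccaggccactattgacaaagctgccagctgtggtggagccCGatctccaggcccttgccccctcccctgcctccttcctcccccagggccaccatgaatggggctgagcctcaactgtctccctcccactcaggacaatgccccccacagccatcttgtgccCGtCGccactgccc

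Plxnc1 and Plxnb1 rose in both genotypes. Plxnc1, the receptor of Sema7a, went from 185, 142 and 164 on day 0 to 372, 387 and 355 on day 2 in wild-type cultures and from 109, 57.2 and 194 to 340.1, 442 and 472 in deleted ones, where mouse 814 had the lowest start. The change was 1.19 ± 0.27 (2.28-fold, adjusted p = 0.00144) in wild-type and 1.96 ± 0.27 (3.88-fold, adjusted p = 2.3e-05) in deleted cultures. Plxnb1, a receptor of Sema4d, rose by 1.14 ± 0.16 (2.21-fold, adjusted p = 8.94e-06) and 1.00 ± 0.16 (2.0-fold, adjusted p = 0.000112) over the same interval, to 1273, 1514 and 1499 and 1025, 1314 and 1547. Plxna3 rose by day 4 by 0.75 ± 0.11 (1.68-fold, adjusted p = 1.28e-05) in wild-type and 0.54 ± 0.11 (1.46-fold, adjusted p = 0.000819) in deleted cultures, and Plxna1 fell in both, with changes of -1.19 ± 0.14 (2.28-fold, adjusted p = 4.97e-07) and -0.93 ± 0.14 (1.9-fold, adjusted p = 2.66e-05).

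**Figure D4:**
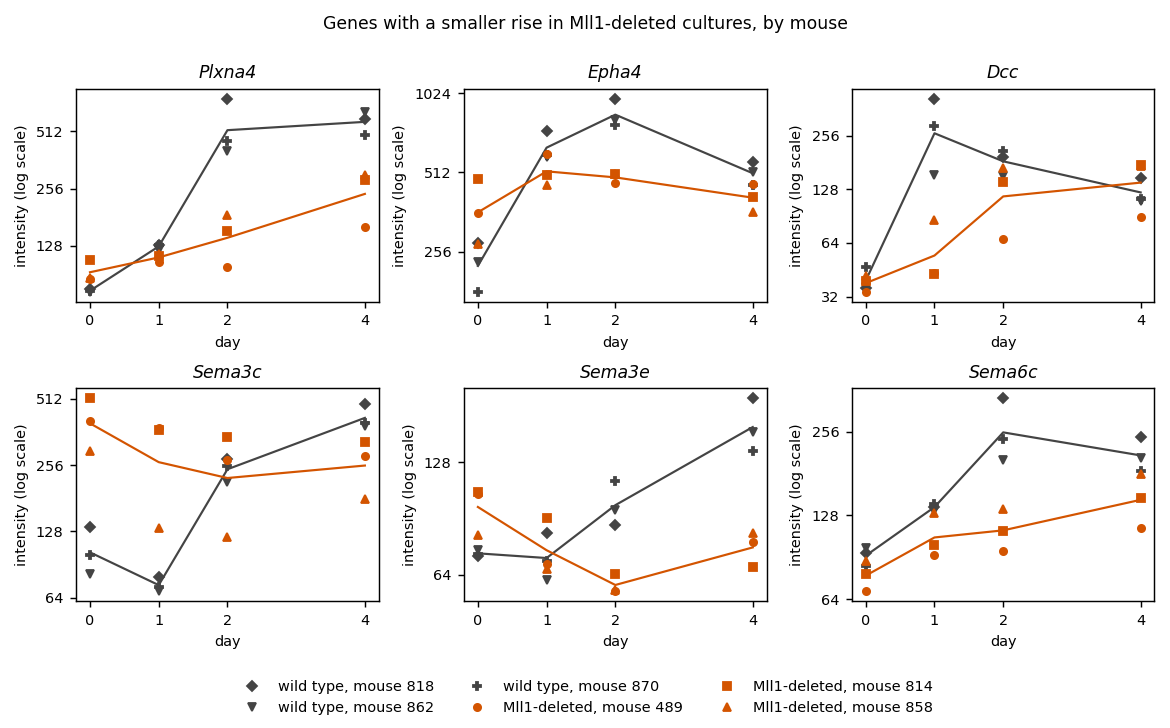
Intensity (log scale) by day of Plxna4, Epha4, Dcc, Sema3c, Sema3e and Sema6c, with markers for mice and lines for means of log2 values as in the plot of Slit and netrin genes. On day 2 Plxna4 lay between 405 and 762 in wild-type and between 98.5 and 185 in Mll1-deleted cultures, and Dcc on day 1 between 155 and 413 and between 42.8 and 86.5.

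**Figure D5:**
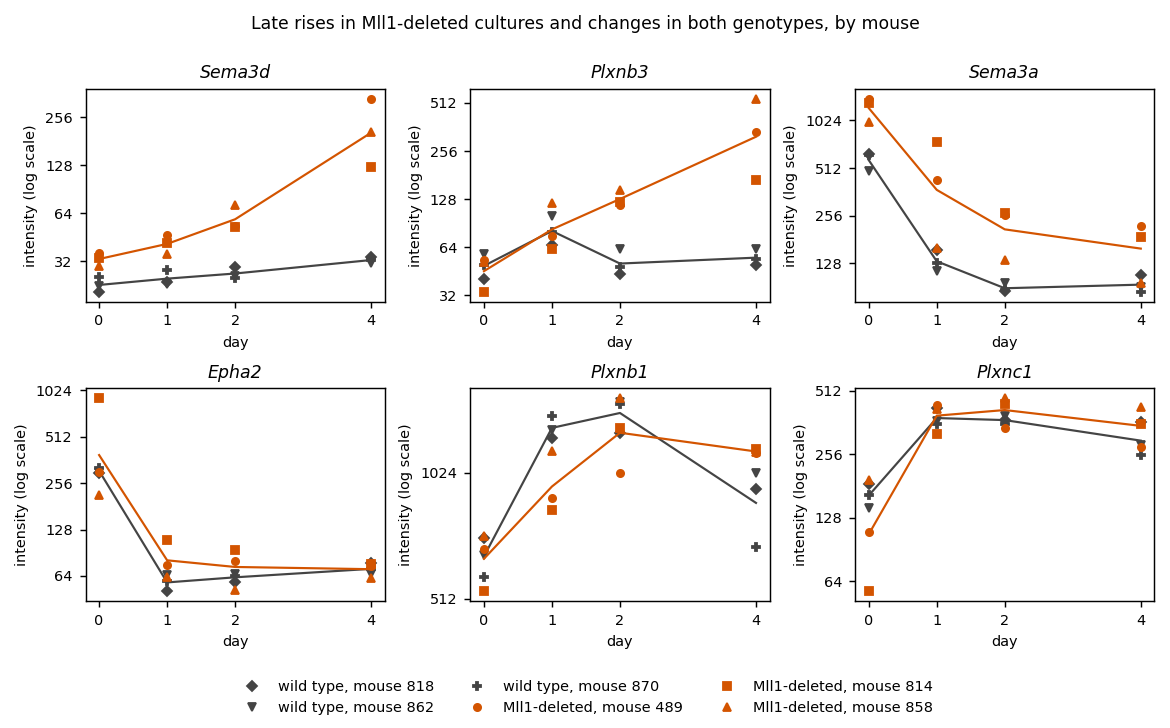
Intensity (log scale) by day of Sema3d and Plxnb3, which rose late in Mll1-deleted cultures, and of Sema3a, Epha2, Plxnb1 and Plxnc1, which changed in both genotypes. Markers are mice and lines are means of log2 values. On day 4 Sema3d lay between 31.4 and 33.9 in wild-type and between 125 and 335 in deleted cultures.

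The ephrins are held in the membrane by a lipid anchor (A class) or by a transmembrane segment (B class). Efna5, a ligand of several EphA receptors, was higher in deleted cultures on day 0, at 345, 312 and 224 against 141, 112 and 96.8, with no overlap. The difference was 1.33 ± 0.19 (2.51-fold, adjusted p = 4.64e-05). By day 4 it had fallen in deleted cultures to 128, 143 and 115, a change of -1.17 ± 0.20 (2.25-fold, adjusted p = 0.000122), beside 115, 96.6 and 83.5 in wild-type cultures. Of the other A-class ephrins, Efna3 was higher in deleted cultures on day 1 by 0.64 ± 0.16 (1.55-fold, adjusted p = 0.014, but up to 0.0885 without mouse 818 or 862), and Efna4 on day 0 by 0.41 ± 0.11 (1.33-fold, adjusted p = 0.0149, but up to 0.108 without mouse 489, 814, 818 or 870 or with the 6 arrays alone).

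The B-class ephrins Efnb1 and Efnb2 fell in deleted cultures by day 2, and Efnb1 fell in both genotypes by day 4. Efnb1 went from 445, 661 and 419 on day 0 to 194, 291 and 276 on day 2 in these, and from 384, 405 and 364 to 433, 367 and 355 in wild-type cultures. The change was -1.0 ± 0.17 (1.99-fold, adjusted p = 0.00023) in deleted and 0.00 ± 0.17 (adjusted p = 0.996) in wild-type cultures, and the difference of the changes was -0.99 ± 0.25 (1.99-fold, adjusted p = 0.019, but up to 0.133 without mouse 489, 818, 862 or 870). By day 4 the change was -0.98 ± 0.17 (1.97-fold, adjusted p = 0.000156) in deleted and -0.78 ± 0.17 (1.72-fold, adjusted p = 0.000898) in wild-type cultures, and their difference was -0.20 ± 0.25 (adjusted p = 0.755). Efnb2 went from 910.1, 1273 and 887 to 468, 653 and 549 in deleted and from 752, 518 and 653 to 1068, 709 and 757 in wild-type cultures. It was lower on day 2 in every deleted mouse and higher in every wild-type mouse. The change was -0.87 ± 0.23 (1.83-fold, adjusted p = 0.00861, but 0.0648 without mouse 489) in deleted and 0.39 ± 0.23 (adjusted p = 0.218) in wild-type cultures, and with the mouse as a block the latter passed (adjusted p = 0.0361). The difference of the changes was -1.26 ± 0.33 (2.4-fold, adjusted p = 0.028, but up to 0.12 without mouse 489, 814, 818, 862 or 870). Efnb3 was lower in deleted cultures on day 1, at 42.2, 65.0 and 69.1 against 116, 85.6 and 95.5, a difference of -0.78 ± 0.19 (1.71-fold, adjusted p = 0.00976, but up to 0.137 without mouse 489 or 818 or with the 6 arrays alone).

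Among the EphA receptors, Epha2 fell in both genotypes. It went from 299.8, 303 and 320.2 on day 0 to 50.8, 64.7 and 59.5 on day 1 in wild-type cultures and from 302, 914 and 214 to 75.7, 110.1 and 63.3 in deleted cultures. Mouse 814 had the highest value on both days. The change was -2.41 ± 0.32 (5.3-fold, adjusted p = 8.41e-06) in wild-type and -2.27 ± 0.32 (4.82-fold, adjusted p = 7.53e-05) in deleted cultures, and without mouse 814 the latter was -1.88. Epha3 had its peak on day 1, at 242, 114 and 175 in wild-type cultures against 40.7, 25.9 and 33.1 on day 0, and at 106, 102 and 163 against 50.0, 45.4 and 53.6 in deleted cultures. The rise was 2.37 ± 0.28 (5.16-fold, adjusted p = 1.58e-06) in wild-type and 1.29 ± 0.28 (2.44-fold, adjusted p = 0.00318) in deleted cultures, and the difference of the rises was -1.08 ± 0.39 (adjusted p = 0.188), with an adjusted p of 0.0331 with the mouse as a block.

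Epha4, which binds ephrins of both classes, rose more in wild-type cultures. These went from 276, 233 and 179.8 on day 0 to 976, 808 and 777 on day 2, and deleted cultures from 358, 483 and 273 to 465, 503 and 504. The groups overlapped on day 0, and every wild-type value on day 2 lay above every deleted one. The wild-type change was 1.91 ± 0.18 (3.76-fold, adjusted p = 3.07e-08) on day 2, and the deleted change was 0.44 ± 0.18 (adjusted p = 0.0756), which passed with the mouse as a block (adjusted p = 0.0178). The difference of the changes was -1.47 ± 0.25 (2.77-fold, adjusted p = 0.000943) on day 2, -0.98 ± 0.25 (1.97-fold, adjusted p = 0.037, but up to 0.298 without mouse 489, 814, 818, 862 or 870 or with array medians aligned) on day 1 and -0.98 ± 0.25 (1.98-fold, adjusted p = 0.0205, but up to 0.142 without mouse 489, 814, 862 or 870) on day 4. Epha7 was higher in deleted cultures on day 2 by 0.83 ± 0.19 (1.78-fold, adjusted p = 0.00696), and Epha5 rose in deleted cultures by 0.98 ± 0.26 (1.98-fold, adjusted p = 0.0156, but up to 0.215 without mouse 489 or with the 6 arrays alone) on day 1, from 159.6, 95.1 and 254 to 395, 227 and 330.5.

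Of the EphB receptors, Ephb3 was the single member of all 72 called between the genotypes on each of the 4 days. How many of all genes were so called was not counted. Ephb3 was 195, 208 and 167 on day 0 and 245, 186 and 201 on day 4 in wild-type cultures, and 316, 371 and 276 and 378, 359 and 303 in deleted ones. Every deleted value lay above every wild-type value on each of the 4 days. The difference was 0.75 ± 0.13 (1.69-fold, adjusted p = 0.000328) on day 0, 0.73 ± 0.13 (1.66-fold, adjusted p = 0.000663) on day 1, 0.62 ± 0.13 (1.54-fold, adjusted p = 0.00268) on day 2 and 0.72 ± 0.13 (1.65-fold, adjusted p = 0.000888) on day 4. Ephb1 was higher in deleted cultures on day 2, at 276, 271 and 229.7 against 143, 142 and 118, a difference of 0.95 ± 0.16 (1.94-fold, adjusted p = 0.000523), and over the 4 days by 0.64 ± 0.10 (1.56-fold, adjusted p = 0.00723). Ephb2 fell in both genotypes, from 1236, 1361 and 1249 on day 0 to 375, 316 and 308 on day 4 in wild-type cultures and from 800.0, 797 and 1421 to 462, 429 and 359.7 in deleted ones. The change was -1.95 ± 0.17 (3.86-fold, adjusted p = 8.15e-09) in wild-type and -1.22 ± 0.17 (2.33-fold, adjusted p = 1.07e-05) in deleted cultures, and their difference, 0.73 ± 0.24 (adjusted p = 0.0799), did not pass.

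Guidance genes outside these families were read as a second list. Of 23 other ligands, receptors and coreceptors, 7 were higher and 1 lower on day 1 in wild-type cultures (6 to 7 higher as each mouse was left out), where 11.6% of all genes were higher and 13.8% lower. In deleted cultures 7 were higher and 1 lower (7 to 8 higher), beside 5.86% and 6.52% of all genes. Between genotypes by day, 7 were higher and 2 lower in deleted cultures on day 0, 5 and 0 on day 1, 6 and 5 on day 2, and 6 and 2 on day 4. As each mouse was left out, those lower were 2, 0 to 1, 1 to 5 and 0 to 1, and those higher 3 to 6, 4 to 5, 5 to 6 and 4 to 7. The shares of all genes on each day are given above. Between genotypes over the 4 days, 6 were higher and 0 lower in deleted cultures in the limma fit (4 to 7 and 0 to 1 as each mouse was left out), beside 3.59% and 3.7% of all genes. Lrrc4c, the receptor of netrin-G1, was the strongest of these, at 329, 230.2 and 441 in deleted and 56.0, 34.5 and 33.1 in wild-type cultures on day 2, and higher over the 4 days by 2.35 ± 0.22 (5.09-fold, adjusted p = 0.000818). Lrrc4, the receptor of netrin-G2, was higher by 0.86 ± 0.12 (1.82-fold, adjusted p = 0.00469), Flrt3, which binds Unc5 and Robo proteins, by 1.01 ± 0.09 (2.02-fold, adjusted p = 0.000818), and Cdon, a surface protein that can bind netrins and Sonic hedgehog, by 1.14 ± 0.15 (2.21-fold, adjusted p = 0.00371). Flrt2, another ligand of Unc5 receptors, rose in wild-type cultures to 1317, 794 and 909 on day 2 from 130.2, 139 and 105, a change of 2.99 ± 0.23 (7.94-fold, adjusted p = 2.8e-09). In deleted cultures it was 314, 302 and 177 and 341, 398 and 442, and the difference of the changes was -2.38 ± 0.32 (5.19-fold, adjusted p = 0.000111). Cxcr4, the receptor of the chemokine Cxcl12, rose by 2.50 ± 0.19 (5.64-fold, adjusted p = 5.26e-09) on day 1 in wild-type and by 1.54 ± 0.19 (2.92-fold, adjusted p = 1.84e-05) in deleted cultures.

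Of 41 intracellular effectors of guidance receptors, 14 were higher and 5 lower on day 1 in wild-type cultures, where 11.6% of all genes were higher and 13.8% lower. As each mouse was left out, it was 10 to 14 higher and 4 to 5 lower. On day 4 it was 9 higher and 12 lower, beside 17.1% and 20.4%. In deleted cultures on day 1, 6 were higher and 3 lower, beside 5.86% and 6.52% of all genes. The ranges with each mouse left out were 2 to 6 and 0 to 5. Between genotypes, 8 were higher and 5 lower in deleted cultures on day 0, and 5 and 5 on day 1. On day 2 it was 2 and 7, and on day 4 it was 7 and 2. As each mouse was left out, those higher were 4 to 9, 0 to 8, 1 to 4 and 2 to 9. Those lower were 2 to 6, 3 to 6, 4 to 7 and 0 to 3. Pak3, a kinase downstream of Rac and Cdc42, rose on day 1 by 3.01 ± 0.22 (8.08-fold, adjusted p = 1.95e-09) in wild-type and 1.64 ± 0.22 (3.13-fold, adjusted p = 3.07e-05) in deleted cultures. Ngef (ephexin), an exchange factor activated by EphA receptors, rose on day 1 in wild-type cultures from 119, 125 and 104 to 292, 279 and 298 and went from 112, 149 and 116 to 97.4, 93.7 and 126 in deleted ones. The wild-type change was 1.32 ± 0.16 (2.5-fold, adjusted p = 2.58e-06), and the difference of the changes was -1.57 ± 0.23 (2.97-fold, adjusted p = 0.000429). Vav3, an exchange factor that couples Eph receptors to Rac, was lower in deleted cultures on day 0, at 164, 138 and 278 against 853, 900.2 and 827, a difference of -2.22 ± 0.22 (4.66-fold, adjusted p = 5.87e-07). Dpysl5, a collapsin response mediator, rose by day 4 by 2.62 ± 0.21 (6.14-fold, adjusted p = 1.94e-09) and 1.90 ± 0.21 (3.73-fold, adjusted p = 5.01e-07), and Dpysl4 was higher in deleted cultures on day 4 by 1.41 ± 0.13 (2.66-fold, adjusted p = 6.35e-07).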

How the data were processed

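RNA of 24 cultures (3 mice of each genotype on 4 days) was measured on Affymetrix arrays, 1 array per mouse and day. Per the submitters' processing notes, the authors ran Affymetrix Power Tools with RMA, and the notes list the build mm9, with no versions. The deposited values are probe set intensity on a linear scale (3.48 to 30298). That scale was inferred from the range of the values, and log2 was taken here of the intensities the authors deposited. Of 28350 probe sets, 22232 carry 1 symbol, for 21095 genes, and where a gene had several, the brightest on average was used. No per-array read depth exists, so the number of arrays limits the precision. Array medians were 75.6 to 87.1, and arrays of a group correlated at 0.984 to 0.996.

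Tests used limma 3.58.1 in R 4.3.3 over all 21095 genes, with Benjamini-Hochberg adjustment. Changes from day 0 and differences of changes came from 1 fit of 8 group means on 24 arrays. Genotypes on a day were compared in a fit where arrays of 1 mouse were allowed to correlate (duplicateCorrelation, 0.165), and the mean over 4 days with 1 value per mouse. Where the dimmer group was below the floor, a fold is a lower bound. The mouse numbers in the labels pair the days. Deviations from the group means correlated at a median of 0.216 within wild-type mice (above 0.1 in 16 of 18 pairs) and 0.31 within deleted mice (18 of 18), against -0.123 and -0.143 between mice. The fit of day 1 against day 0 was also run on simulated data with independent noise on each array. That run leaves out the correlation within mice, the genotype fits and the differences of changes, so it does not check them.

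Named members are, for each comparison, the 4 called with the largest rise and fall, all 18 whose change differed between genotypes, and set ligand and receptor pairs. Others were named after their values were seen. The members and the gene lists were chosen with earlier results of these data known. Alternatives were array medians aligned, the mean of all probe sets, genes above the floor, cross-hybridisation type 1, the 6 arrays compared, the mouse block, and each mouse left out. Figures were drawn with matplotlib 3.10.9 in Python 3.11.15.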

Additional observations from a re-analysis of the deposited data

Results flagged for a closer look

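The change from day 0 differed between the genotypes, in the limma fit with Benjamini-Hochberg adjustment, for 18 members on at least 1 day. How many of all genes did so on at least 1 day was not counted. Values are the log2 change in Mll1-deleted cultures minus that in wild-type cultures, so that a negative value means that deleted cultures rose less, fell more, or fell where wild-type cultures rose.

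On day 1 the difference was above 0 for Ntn1 at 1.94 and Ntn4 at 0.87. It was below 0 for Dcc at -2.23 and Epha4 at -0.98. On day 2 the difference was above 0 for Ntn1 at 1.78 and Plxnd1 at 0.91. It was below 0 for Efnb1 at -0.99, Efnb2 at -1.26, Epha4 at -1.47, Plxna2 at -1.12, Plxna4 at -2.21, Sema3c at -2.07, Sema3e at -1.12, Sema6c at -0.93, Slit3 at -2.11 and Unc5c at -1.19. On day 4 the difference was above 0 for Ntn1 at 1.37, Ntn4 at 0.68, Plxnb3 at 2.63, Plxnd1 at 0.91, Sema3d at 2.12 and Sema6a at 0.70. It was below 0 for Epha4 at -0.98, Plxna4 at -1.59, Sema3c at -2.66, Sema3e at -1.48, Slit2 at -2.85 and Slit3 at -2.50. 

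In this fit, Epha4 and Ntn1 differed on all 3 days. With the mouse as a block, Slit2, Slit3 and Unc5c did so too. Their adjusted p on day 1 was then 0.0141, 0.00337 and 0.0229. Many of these calls were lost without single mice, as given with each value in the results above. The Slit3 calls were lost on day 2 (adjusted p up to 0.186 without mouse 489, 818, 862 or 870) and on day 4 (adjusted p up to 0.0912 without mouse 489, 818, 862 or 870), and that of Unc5c on day 2 (adjusted p up to 0.207 without mouse 489, 814, 818, 862 or 870 or with array medians aligned). Most of the members flagged here start from day 0 groups that did not overlap. Ntn1, Ntn4 and Plxnd1 were lower in every deleted culture than in every wild-type one on that day. Slit2, Slit3, Unc5c, Sema3c, Sema3d, Sema3e, Plxna2, Plxna4, Efnb1 and Efnb2 were higher in every deleted culture. The day 0 groups overlapped for Dcc, Epha4, Plxnb3, Sema6a and Sema6c. The part of the fibroblast and meningeal markers, the neuroblast markers and the oligodendrocyte lineage markers, whose values stand beside the results above, was not tested.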

How the results depend on the processing

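Of the 313 calls of members over the 14 comparisons, 157 held under every alternative run, and none changed direction. Taking the mean of all probe sets ended 0 calls, as did keeping genes above the floor (312 calls compared) or probe sets of cross-hybridisation type 1 (312). Aligned array medians ended 26, independent arrays 10 of 80, and the 6 arrays compared 54 of 259. Mice left out ended 16 calls (mouse 858) to 104 (mouse 870). The fit of 6 arrays has few residual degrees of freedom.

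With the 6 arrays alone, 5 members were called in Mll1-deleted cultures on day 1, against 19. With mouse as a replicate block, the difference of changes on day 1 was called for 11 members, against 4. The block ended 0 of 207 calls. The block gave 42, 43 and 41 members in wild-type cultures on days 1, 2 and 4, 26, 37 and 40 in deleted ones, and 15 and 17 for the difference of changes on days 2 and 4.

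As each mouse was left out, the wild-type counts were 19 to 33 on day 1, 24 to 39 on day 2 and 29 to 36 on day 4. In deleted cultures they were 11 to 20, 23 to 28 and 26 to 34. Between genotypes they were 12 to 31 on day 0, 11 to 30 on day 1, 13 to 27 on day 2, 6 to 17 on day 4 and 9 to 30 in the mean over days. The difference of changes gave 1 to 11 on day 1, 4 to 20 on day 2 and 5 to 18 on day 4. The highest of the genotype and difference counts were all without mouse 858. Leaving out a mouse leaves 2 in its group. Each of these settings also changes the calls of all genes, whose shares are not set beside these counts. The counts therefore do not compare the members with all genes. Probe sets near the floor, such as Sema3d in wild-type cultures, have compressed differences.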
